A study of Rattus norvegicus with 4 samples.

Results

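The 10 genes described here mark the lipid-associated, scar-promoting macrophage state known from lung, liver and fat. They are Trem2, Tyrobp, Spp1, Gpnmb, Apoe, Lpl, Lgals3, Fabp4, Fabp5 and Chi3l1. They were chosen by name: every non-control probe whose transcript identifier the RefSeq gene table assigns to one of these symbols was taken, which gave 12 probes and 84 spots per array, of 21109 probes named for 16581 genes. RNA came from NR8383 cells, a macrophage line started from the lung lavage of a normal rat, at 20 passages, exposed for 4 h to Printex90, a carbon black, at 0.9 cm2/cm2. The labels mark the exposure with the abbreviation ALI, and they say that about as many cells float as adhere. All 4 arrays, 1 for each biological replicate, carry exposed cells of this single line. Untreated cells are not analysed here, so every value is a level in exposed cells and none is a response to the particles.

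In this state macrophages take up and store lipid, and many of them sit in fibrotic tissue. TREM2 is a surface receptor for lipids and lipoproteins that signals through its adaptor TYROBP, also called DAP12. LPL, FABP4 and FABP5 free and carry fatty acids, APOE exports cholesterol, GPNMB and galectin-3 (the product of Lgals3) belong to the lysosomal and damage responses, and osteopontin (the product of Spp1) and the chitinase-like protein CHI3L1 are secreted proteins associated with fibrosis.

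Of the 10 genes, 8 were well above background on all 4 arrays, against 50.8% of all named genes. The 2 that were detected on no array, Spp1 and Chi3l1, are both secreted mediators linked to fibrosis. Detection means that at least 1 spot kept after removal of outlier spots carried the scanner software's well-above-background flag. The 50.8% is not matched for printing, since most of the 10 genes have a probe printed 10 times on each array. Of 853 named probes printed 10 or more times, 607 had every kept spot above background on all 4 arrays. For 147 of them no kept spot was above background. The count of 8 is therefore not read as a property of the set. In RNA from a whole culture, fewer expressing cells and less RNA per cell cannot be told apart. The 8 genes were detected under each other detection rule tried, with 61.7% of named genes detected under the less strict positive-and-significant flag, 54.0% when 3 arrays sufficed, 45.0% when every probe of the gene was required, 51.3% with flagged spots kept, 48.0% without bright regions of the arrays and 50.6% when over 50% of a probe's spots had to pass. Leaving out replicates 1, 2, 3 and 4 gave 51.3%, 51.3%, 52.6% and 51.2% of named genes. Of the markers of the labelled cell type, 11 of 14 were detected on all 4 arrays, Cd68 and Csf1r among them, while Adgre1 was detected on 2 arrays, Marco on 1 and Car4 on none. Genes of secreted proteins are also among the 8 detected, such as Lgals3 and Apoe, so detection did not divide the set by secretion. Spp1 and Chi3l1 each rest on 1 probe, and Chi3l1 on 1 spot per array. Whether other probes would detect them was not tested.

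Upstream sequences of 4 genes are printed so that 2 genes whose spots were all above background, Gpnmb and Trem2, stand beside the 2 that were not detected, Spp1 and Chi3l1. RefSeq windows were on hand for 5 of the 10 genes, build GRCr8. Those of Apoe, whose kept spots were also all above background, are not printed. Each line gives the 250 bases before an annotated start, 5′ to 3′ on the gene's strand. Capitals mark matches, on either strand, to any of 5 motifs. The TATA box was searched as TATAAA. The E-box was searched as CACGTG. The M-box core bound by MITF was searched as TCATGTG. The PU.1 core was searched as GAGGAA. The AP-1 site was searched as TGANTCA. Windows lie at chr4:79340878-79341127 (plus strand, Gpnmb), chr9:20151780-20152029 (minus strand, Trem2), chr14:5619805-5620054 (minus strand, Spp1) and chr13:48193589-48193838 (plus strand, Chi3l1).
Gpnmb: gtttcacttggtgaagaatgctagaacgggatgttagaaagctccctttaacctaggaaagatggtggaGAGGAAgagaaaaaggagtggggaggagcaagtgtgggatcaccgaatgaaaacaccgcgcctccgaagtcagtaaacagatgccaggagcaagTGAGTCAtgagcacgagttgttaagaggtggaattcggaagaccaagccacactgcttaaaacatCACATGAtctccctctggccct
Trem2: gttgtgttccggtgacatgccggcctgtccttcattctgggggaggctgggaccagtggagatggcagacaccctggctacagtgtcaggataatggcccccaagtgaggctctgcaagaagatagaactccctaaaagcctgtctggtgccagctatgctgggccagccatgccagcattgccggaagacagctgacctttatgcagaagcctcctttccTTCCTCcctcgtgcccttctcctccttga
Spp1: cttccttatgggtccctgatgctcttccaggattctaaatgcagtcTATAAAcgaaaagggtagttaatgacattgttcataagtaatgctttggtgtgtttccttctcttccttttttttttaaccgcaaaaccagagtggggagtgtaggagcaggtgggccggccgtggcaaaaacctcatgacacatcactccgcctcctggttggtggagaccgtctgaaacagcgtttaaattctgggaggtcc
Chi3l1: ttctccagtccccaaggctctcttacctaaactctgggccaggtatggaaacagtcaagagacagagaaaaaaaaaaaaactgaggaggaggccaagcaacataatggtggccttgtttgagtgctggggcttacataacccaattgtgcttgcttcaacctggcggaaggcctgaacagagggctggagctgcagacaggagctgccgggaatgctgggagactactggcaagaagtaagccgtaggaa

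Gpnmb carried matches to 3 of the 5 motifs, the M-box core at position -22 from the start, the AP-1 site at -87 and the PU.1 core at -181. Trem2 carried a match to the PU.1 core at -29, and Spp1 the letters TATAAA at -204. Chi3l1 held no match to these letters in this window. The Apoe windows, not printed, held a match to the M-box core at -41 and, in a different window, to the PU.1 core at -108. A further Apoe window held no match. Among 33469 RefSeq windows of the same length, the M-box core occurred in 3.07%, the AP-1 site in 6.34%, the PU.1 core in 23.3%, the TATA box in 12.9% and the E-box in 5.59%. None of these printed matches overlaps another, and a match is a description of letters, not of binding.

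Levels below are log2 intensities relative to the array's 75th percentile, so that 0 lies at that percentile. A level belongs to its probe, and levels of different genes are not ranked against each other. Probes of 7 of the genes were printed 10 times on each array, which gives a direct view of the error within an array. Fabp4, Lpl, Chi3l1 and 1 of the 2 Lgals3 probes rested on 1 spot per array. No spot of these genes was saturated.

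**Figure D1:**
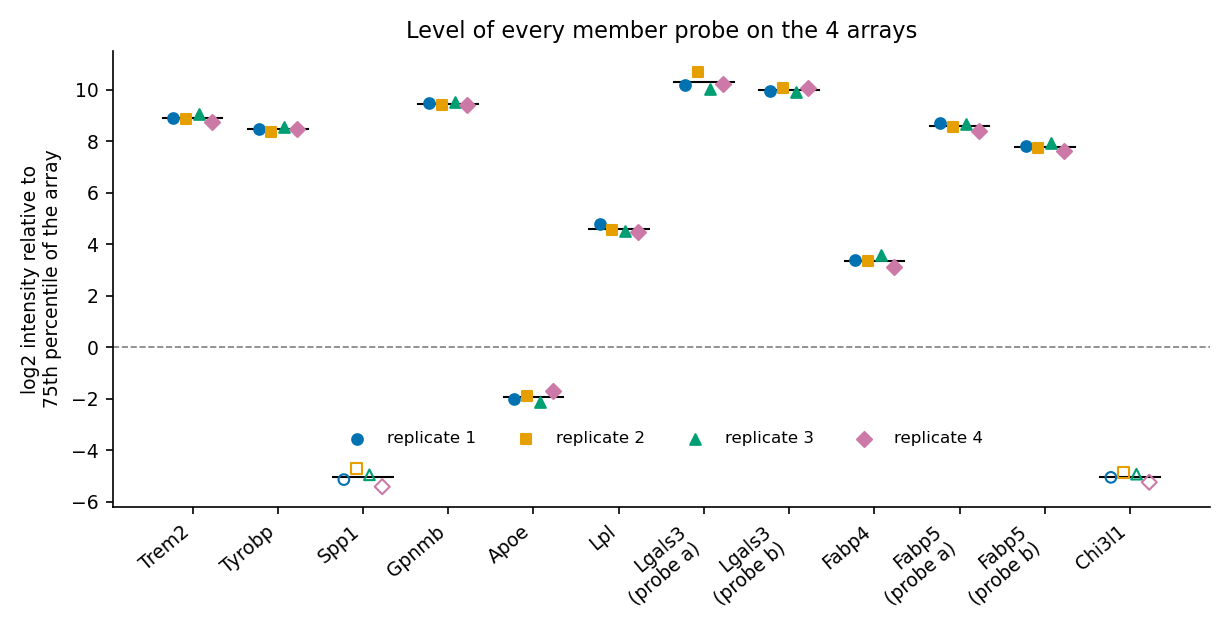
Level of each of the 12 probes (horizontal axis) on the 4 arrays, as log2 intensity relative to the array's 75th percentile (vertical axis; dashed line at 0). Filled symbols are detected, open symbols are not well above background, and the black line is the mean of the 4 arrays. Spp1 and Chi3l1 lie near -5 with open symbols on every array, and Apoe is detected but below the dashed line.

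Trem2, the lipid receptor, was bright and even across replicates. Its probe A_42_P512838 had mean intensities over the kept spots of 47777, 38993, 53107 and 54409 on replicates 1 to 4. The corresponding levels were 8.91, 8.86, 9.04 and 8.74, with a mean of 8.89 ± 0.12 (SD, n = 4). Intensity was lowest on replicate 2, but after scaling replicate 4 was lowest and replicate 3 highest, and the arrays spanned a 1.23-fold range. The median signal of a Trem2 spot was 1502 to 2024 times the local background beside it.

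Tyrobp, which encodes the adaptor that carries the TREM2 signal into the cell, gave levels of 8.46, 8.36, 8.56 and 8.47 (mean 8.46 ± 0.08, SD, n = 4). Its intensities were 34931, 27548, 38013 and 45088. The 4 levels lay within a 1.14-fold range, and only 11.3% of the 8424 detected genes had a smaller SD. Every kept spot of the receptor and of the adaptor was above background. Of 12 genes that act with them in signalling, 11 were detected on all 4 arrays and Lat2 on 3. On all 4 arrays the share over all named genes was 50.8%. Syk, the kinase recruited by the adaptor, had levels of 3.35, 3.51, 3.63 and 3.39, and Plcg2, the phospholipase that acts after it, 2.21, 2.72, 2.62 and 2.43. Both were lowest on replicate 1. Their relatives Trem1 and Trem3 and the second adaptor gene Hcst were detected as well.

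Gpnmb, a transmembrane glycoprotein of lysosomes and melanosomes and a known target of MITF factors, had an SD of 0.06, the smallest of the 8 detected genes under the main scaling. It was not the smallest with the array median or normexp (Apoe), without bright regions (Lgals3), without replicate 1 (Lpl) or without replicate 2 (Tyrobp). Its levels were 9.47, 9.41, 9.53 and 9.40 on replicates 1 to 4 (mean 9.45 ± 0.06, SD, n = 4). Its intensities were 70588, 57096, 74682 and 85737. Of all detected genes 5.31% had a smaller SD. Mitf, Tfe3 and Tfeb, factors of that family, were detected on 4, 4 and 3 arrays.

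Lgals3 encodes galectin-3, a sugar-binding lectin that gathers at damaged lysosomes and is secreted, and its 2 probes differed most on replicate 2. Probe A_44_P1159779, a single spot, gave levels of 10.16, 10.71, 10.04 and 10.21 (mean 10.28 ± 0.29, SD, n = 4). Probe A_43_P12698, with 10 spots, gave 9.94, 10.08, 9.92 and 10.05 (mean 10.00 ± 0.08, SD, n = 4). Both were highest on replicate 2, but there the single-spot probe exceeded the other by 0.63 on the log2 scale, against 0.22, 0.12 and 0.16 on replicates 1, 3 and 4. The gap of replicate 2 was 0.805 of the range, which is under Dixon's 95% critical value for 4 samples. On replicate 2 that single spot lies in a bright region of the array, a block where spots of unnamed probes also stood above the other arrays. Without the bright regions the gene's level was 9.98 ± 0.06 (SD, n = 4), from the probe with 10 spots.

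Of 8 other galectin genes, 4 were detected on all 4 arrays, 2 on some and 2 on none, beside 50.8% of all named genes on all 4. Lgals1, the most widely expressed galectin gene, had levels of 3.40, 3.28, 3.47 and 3.07. Lgals2 lay at -2.03, -2.44, -2.66 and -1.49 and was detected on 3 arrays. Lgals3bp, which encodes a glycoprotein bound by galectin-3, was detected on all 4 arrays, while Lgals4 and Lgals9 were detected on none.

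**Figure D2:**
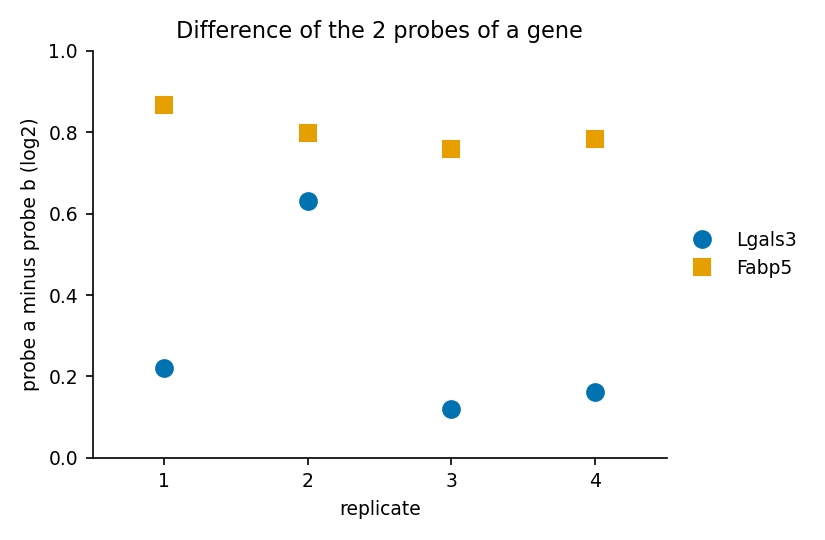
Difference between the 2 probes of Lgals3 (circles) and of Fabp5 (squares) on each replicate (horizontal axis), on the log2 scale (vertical axis); probe a is the one with the higher mean. The Fabp5 difference stays between 0.76 and 0.87, while the Lgals3 difference is 0.63 on replicate 2 and between 0.12 and 0.22 on the other arrays.

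The fatty acid carriers Fabp4 and Fabp5 were the members of their family with a signal on every array. Fabp5, the epidermal type, had 2 probes of 10 spots each: A_44_P362981 gave levels of 8.69, 8.54, 8.68 and 8.40 (mean 8.58 ± 0.14, SD, n = 4) and A_44_P1102458 gave 7.83, 7.74, 7.92 and 7.61 (mean 7.78 ± 0.13, SD, n = 4). Both placed replicate 4 lowest and replicate 2 next to it. The first probe was 1.69 to 1.82 times as bright as the second, and this difference of 0.80 ± 0.05 (log2, SD, n = 4) varied less over arrays than either level did. Fabp4, the adipocyte type that macrophages also make, had intensities of 1052, 854, 1190 and 1093 and levels of 3.40, 3.35, 3.56 and 3.10 (mean 3.35 ± 0.19, SD, n = 4). The scanner software's error estimate for each Fabp4 spot was 10.0% of its signal. Replicate 4 was lowest for Fabp4 as for Fabp5, and replicate 3 was highest for Fabp4.

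None of the 8 other genes of the fatty acid binding family was detected on all 4 arrays, 2 were detected on some, and 6 on none. Across all named genes, 50.8% were detected on all 4 arrays. Fabp1, the liver type, had levels of -2.71, -1.92, -3.90 and -1.40 and was detected on 2 arrays. Fabp2, the intestinal type, lay at -5.41, -5.10, -5.04 and -5.80 and was detected on none. In the RefSeq gene order of GRCr8, Fabp9 and Pmp2 are the only protein-coding genes between Fabp4 and Fabp5, and both were detected on no array.

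Lpl, the lipase that releases fatty acids from lipoproteins, had intensities of 2714, 1954, 2324 and 2848. Its levels were 4.77, 4.54, 4.52 and 4.49 (mean 4.58 ± 0.13, SD, n = 4). Replicate 1 stood above the other 3 arrays. Of 8 measured partners and other lipases, 5 were detected on all 4 arrays, beside 50.8% of all named genes. Gpihbp1, the endothelial anchor of the enzyme, lay at background throughout (-4.92, -4.86, -4.88 and -5.36). Angptl4, which encodes an inhibitor of the enzyme, had levels of 3.10, 2.62, 2.10 and 3.00, lowest on replicate 3. The lysosomal lipase gene Lipa and the fatty acid receptor gene Cd36 were detected on all 4 arrays, and the hormone-sensitive lipase gene Lipe on none.

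Apoe, the cholesterol-carrying apolipoprotein that macrophages are known to secrete, was detected but dim. Its probe A_44_P171440, with 10 spots, gave intensities of 24.6, 22.5, 22.9 and 39.4 on replicates 1 to 4, against a median of 2.91, 2.72, 3.19 and 2.85 for the 308 negative-control spots. Every kept spot was well above background, but the median signal of a spot was only 2.04 to 2.63 times its local background. The levels were -2.01, -1.90, -2.14 and -1.69 (mean -1.94 ± 0.19, SD, n = 4), highest on replicate 4 under the main scaling. Spots of this probe on 1 array had an SD of 0.20 to 0.32 (log2), against 0.08 to 0.21 for Trem2. Only this 1 probe carries the gene's name here, and whether the array would read a brighter signal with another probe was not tested.

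Of 9 measured partners of APOE, 6 were detected on all 4 arrays, beside 50.8% of all named genes. Abca1, the exporter that loads cholesterol onto apolipoproteins, had levels of -0.51, -0.40, -0.40 and -0.26. Abcg1, its partner exporter, lay at 8.23, 8.21, 8.35 and 8.56. Both were highest on replicate 4 under the main scaling, as Apoe was, beside 20.0% of all detected genes. The Apoe order did not hold under other processing. With the array median as the scale, replicate 3 was highest for Apoe. With normexp, replicate 2 was highest for it and replicate 4 lowest. Of the genes of the apolipoprotein cluster beside Apoe, Apoc4 was detected on 4 arrays, Apoc2 on 3 and Apoc1 on none.

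Spp1, which encodes osteopontin, was at background. Its probe A_44_P491796 has 10 spots per array, of which 9, 8, 9 and 9 were kept, and no kept spot was well above background on any replicate. Mean intensities were 2.80, 3.21, 3.24 and 2.96, beside the medians of 2.72 to 3.19 for negative-control spots. The measured levels, -5.15, -4.71, -4.96 and -5.42, have no order at this depth.

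One Spp1 spot stood far from the others. It read 3.04 on replicate 1 but 3265, 3047 and 4057 on replicates 2 to 4, while the median of the other 9 spots was 3.03, 2.93, 3.34 and 3.08. The software marked it as non-uniform and as a population outlier on replicates 2 to 4. The spot directly above it in the column read 20677, 13860, 16888 and 22908, also bright on replicate 1 where the Spp1 spot was dark, and its part in the reading was not tested. With flagged spots kept, the mean level of Spp1 rose from -5.06 to -4.20, and 0, 2, 1 and 1 of its 10 spots on replicates 1 to 4 were well above background. RNA of receptor genes was also read: of 6 measured genes in the list for osteopontin and GPNMB receptors, 5 were detected on all 4 arrays. That share was 50.8% over all named genes. Itgb5 was detected on 1 array, and the integrin genes Itgav and Itga9 were not measured. Cd44 lay at 6.53, 6.32, 6.55 and 6.28, and the integrin gene Itgb1 at 5.95, 5.78, 5.74 and 5.76.

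Chi3l1, the chitinase-like protein, rested on 1 spot per array with intensities of 2.98, 2.86, 3.29 and 3.34. None was well above background, and the software's error estimate was 96.5% to 100.3% of the signal. Of 5 measured relatives and receptor genes, 1, Chid1, was detected on all 4 arrays, beside 50.8% of all named genes. Chia, the acidic chitinase, lay at -5.00, -5.00, -5.02 and -5.46 and was detected on none. Chit1, the macrophage chitinase, was detected on replicate 3 alone, at -2.28 against -5.10, -5.08 and -5.72 on replicates 1, 2 and 4.

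**Figure D3:**
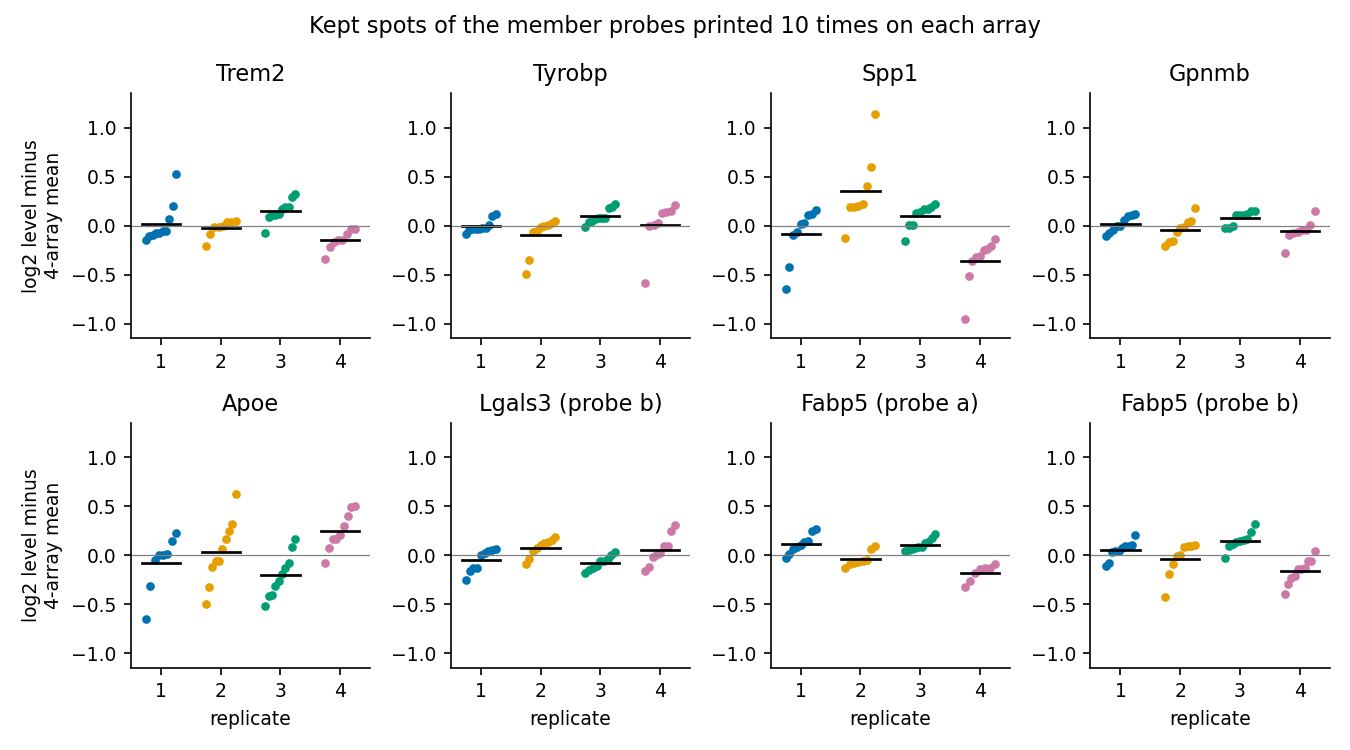
Every kept spot (points) of the 8 probes printed 10 times, by replicate (horizontal axis), as log2 level minus the mean of the 4 arrays (vertical axis); the black line is the mean of an array. Spots of Fabp5 probe a on replicate 4 do not overlap those on replicates 1 and 3, those of Gpnmb and Lgals3 probe b overlap on all arrays, and the Spp1 spots are all at background.

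Repeated spots allow a test of whether arrays differ by more than the noise between spots. Of the 8 repeated probes of these genes, 7 differed between arrays (limma moderated F test, Benjamini-Hochberg over 1350 probes printed 3 or more times), beside 82.1% of all those probes. This count is near the background and marks no property of these genes, and 1 of the 7 is Spp1, whose spots were at background. The smallest adjusted p was that of Fabp5 probe A_44_P362981 (2.18e-07, limma), whose 4 array means had an SD 5.00 times that expected from its spots alone. For Tyrobp the test did not pass (adjusted p = 0.085, limma), and its SD was 1.40 times that expected from spots. The call turned with flagged spots kept (0.020) and without replicate 4 (0.0088), and its adjusted p lay between 0.0088 and 0.41 (limma) in the 7 alternatives. For Gpnmb the adjusted p was 0.049 (limma), with a range over the 7 alternatives of 0.033 to 0.51. After quantile normalization between arrays 1 of the 8 passed, Fabp5 probe A_44_P362981 (adjusted p = 0.0020, limma), beside 55.9% of all probes. Without replicate 3 the count was 3 of 8, beside 65.9%, and without replicates 1, 2 and 4 it was 7, 6 and 6, beside 73.0%, 76.4% and 69.1%. With flagged spots kept it was 6 (80.1% of all probes), and with the 75th percentile over detected probes 6 (75.2%).

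The SD over replicates of the 8 detected genes ran from 0.06 (Gpnmb) to 0.29 (Lgals3) with a median of 0.134. The Lgals3 value is that of its single-spot probe, which lies in a bright region on replicate 2. Its probe with 10 spots had an SD of 0.08, and without bright regions the gene had 0.06. Over all detected genes the median was 0.165; the 5th percentile was 0.06 and the 95th 0.41. Of the 8 genes, 5 lay below that median, while Fabp4, Apoe and Lgals3 exceeded 60.2%, 61.4% and 85.0% of detected genes. With the array median as the scale, the median SD was 0.395 for the 8 genes and 0.390 for all detected genes. The median of the 8 was 0.103 without replicate 4 and 0.152 without replicate 2. Replicate 4 was lowest for 5 of the 8 genes (Trem2, Gpnmb, Lpl, Fabp4 and Fabp5) and replicate 3 highest for 4 (Trem2, Tyrobp, Gpnmb and Fabp4), where 29.8% of all detected genes were lowest and 31.5% highest. The median deviation of the 8 from their 4-array means was -0.08 on replicate 4 and 0.09 on replicate 3, beside -0.03 and 0.03 over all detected genes. With normexp background correction on the median signals, each array was highest for 2 of the 8 genes, so the order of replicates depends on how the arrays are scaled and corrected.

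**Figure D4:**
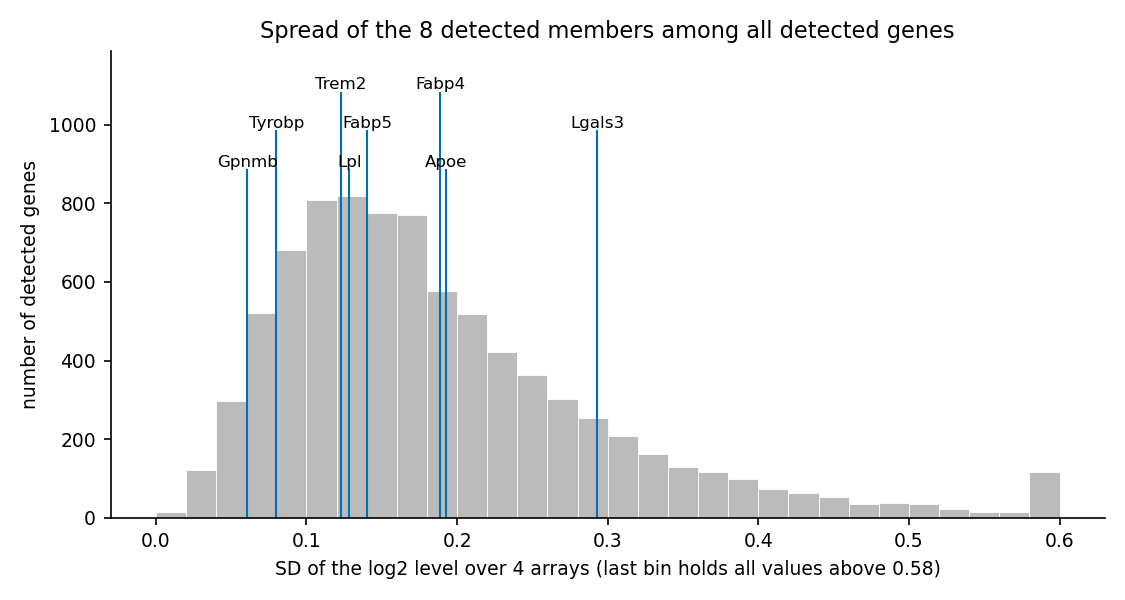
Number of detected genes (vertical axis) by the SD of their log2 level over the 4 arrays (horizontal axis); blue lines mark the 8 detected genes of the set. Gpnmb (0.06) and Tyrobp (0.08) lie at the narrow end and Lgals3 (0.29) at the wide end. The Lgals3 line is that of its single-spot probe, and without bright regions its SD was 0.06.

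The 2 detected genes with the largest SD were Lgals3 and Apoe, and the genes closest to each in pattern were sought by the root mean square distance between levels after subtraction of the own mean, over the 4 arrays. For Lgals3 these were Ddx49, Pth2 and Slc26a2, at distances of 0.03 each, with replicate 2 highest in all. For Apoe, Zng1a and Tent4b lay at 0.01 and 0.02, with replicate 4 highest and replicate 3 lowest in both. These are descriptions over 4 arrays among 8424 detected genes, and the Lgals3 pattern rests on the single spot in the bright region of replicate 2. The order of replicates for Apoe differed with the array median as the scale and with normexp.

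Genes that usually accompany the set were mostly present. The counts below stand beside 50.8% of all named genes detected on all 4 arrays. All 12 measured further genes of lipid-associated macrophages were detected on all 4 arrays, among them Plin2, the coat protein of lipid droplets, at 5.52, 5.64, 5.93 and 5.83 and the tetraspanin gene Cd9 at 5.07, 5.10, 5.27 and 5.10. The lysosomal genes Ctsb, Ctsd, Ctsl, Npc1, Npc2, Lipa and Cd63 belong to this group. Of 10 measured transcription factors linked to the state, 7 were detected on all 4 arrays. Pparg, the lipid-sensing nuclear receptor, lay at 6.45, 5.93, 6.22 and 6.40, and Nr1h3, which encodes the sterol receptor LXR alpha, at 6.50, 6.25, 6.29 and 6.21. Of 12 other genes of scar-promoting macrophages, 9 were detected on all 4 arrays. Tgfb1, the main growth factor of fibrosis, lay at 2.67, 2.75, 2.85 and 2.90, and the platelet-derived growth factor gene Pdgfb at -4.05, -3.63, -4.92 and -3.11, detected on 1 array.

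**Figure D5:**
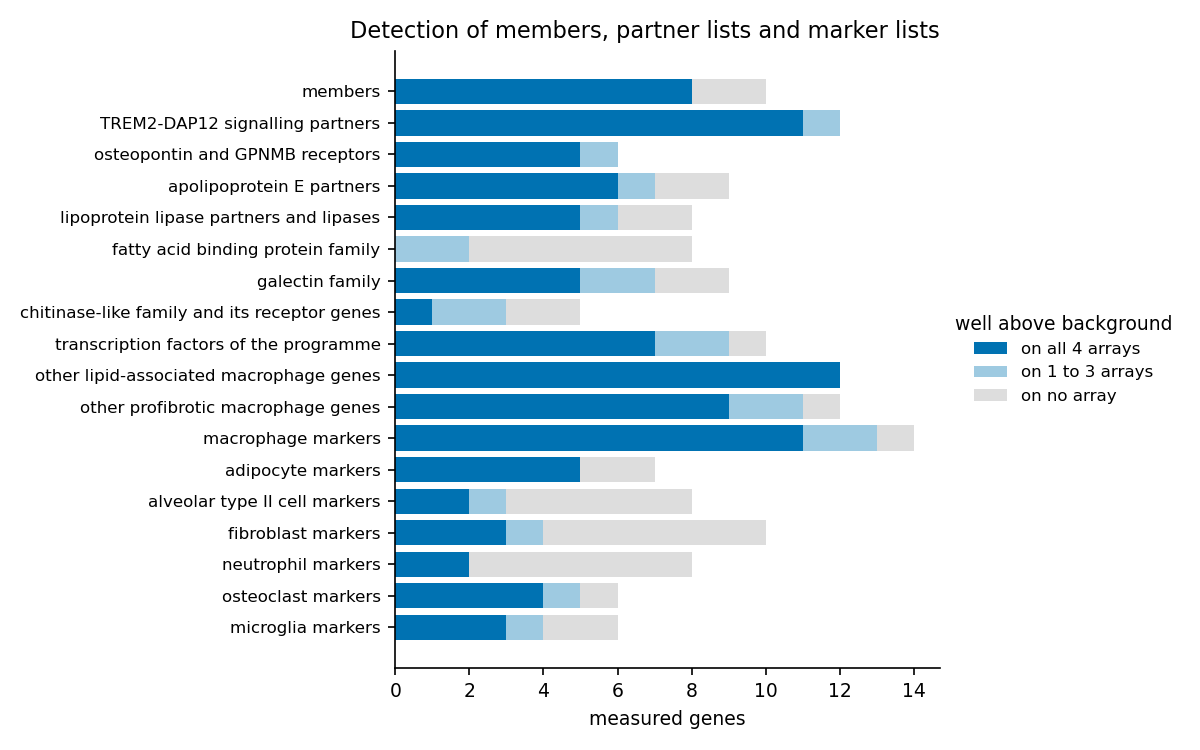
Number of measured genes (horizontal axis) in the set, in each partner list and in each list of cell type markers (vertical axis), split into those detected on all 4 arrays (dark blue), on some arrays (light blue) and on none (grey). The 8 further fatty acid binding genes have none detected on all 4 arrays, and the 12 further lipid-associated macrophage genes have all; the galectin list also counts Lgals3bp.

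Several of these genes are also made by other cells, whose markers were read in the same arrays. Their counts stand beside 50.8% of all named genes detected on all 4 arrays. Summed linear levels, in multiples of the 75th percentile, describe these probes alone, and the genes that lead each sum were singled out after their values were seen. Macrophage markers summed to 1093 to 1113, of which Lyz2 gave 61.9% to 65.4%. Fabp4 and Lpl are adipocyte genes: 5 of 7 measured adipocyte markers were detected on all 4 arrays (Cidec, Cidea, Retn, Cfd and Plin4), with a sum of 339 to 421. Retn alone gave 92.2% to 93.2% of that sum, and the defining hormone genes Adipoq and Lep were detected on no array. Fibroblast markers gave 3 of 10 (Dcn, Fap and Acta2; sum 1.94 to 2.44), with Col1a1 and Col3a1 on no array. Alveolar type II markers gave 2 of 8 (sum 61.9 to 76.3), with Sftpc and Sftpb on no array. The 2 detected were Napsa, with 74.4% to 80.9% of the sum, and Etv5, with 18.8% to 25.0%. Neutrophil markers, relevant to Chi3l1, gave 2 of 8 (Camp and Lcn2; sum 13.03 to 20.57), with Elane and Ltf on no array. Osteoclast markers gave 4 of 6 (Acp5, Calcr, Atp6v0d2 and Mmp9; sum 46.4 to 59.2), with Ctsk on none. Microglia markers gave 3 of 6, P2ry12 and Cx3cr1 among them (sum 7.92 to 9.03), with Tmem119 on none. All 4 arrays carry RNA of the single line NR8383, so these sums describe markers read in that line and do not measure other cell types. The source of these marker signals was not tested.

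Facts of the arrays bear on all values. The 75th percentile was an intensity of 99.44, 83.77, 100.97 and 127.07 on replicates 1 to 4, and 8917 to 9985 named genes were detected per array. Of the 84 spots of these genes, 4 to 12 per array were left out as outliers, and 0, 3, 0 and 2 lay in a bright region of that array. Nothing in the labels links replicates to separate days, and the test over spots treats spots of an array as technical repeats.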

How the data were processed

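Total RNA of 4 exposed NR8383 cultures was measured on 1-colour Agilent arrays. Per the submitters' processing notes, the deposited spot intensities come from Agilent Feature Extraction in its version 11.0.1.1; the processed signal is background-subtracted and spatially detrended within an array, per the file headers, and no scaling between arrays is recorded. Per the file headers the grid uses rn4, so no gene coordinates are given, and the promoter windows alone carry GRCr8 positions.

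Transcript identifiers were matched without version to the RefSeq gene table of GRCr8. Control spots and spots marked non-uniform or population outlier were left out. Log2 processed signals were averaged per probe, and each array's 75th percentile was subtracted. A gene's level is that of its brightest probe measured on all 4 arrays; every probe of the 10 genes is given. The number of arrays, 4, limits precision. Array differences were tested on repeated spots with limma's moderated F. Tested on simulated data over 1350 probes, this found 74% of shifts of 0.25 log2 units and 92% of shifts of 0.5, while 6 of 1150 probes without a shift were called. The simulated spots had independent normal noise, and each shift was put on a single array. Errors shared by the spots of an array were not simulated, so the rate of false calls on the real arrays is not shown.

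The 10 genes and all lists were chosen with earlier results of these data known. Values are printed for the 10 genes, the first 2 measured genes of each partner list and the 3 nearest genes of the 2 detected genes with the largest SD; other genes are named by detection, and some items are not reported here. Bright regions are blocks of 16 rows and 8 columns in which more than 10% of the spots of unnamed probes exceeded each of the remaining arrays by at least 1 (log2). Computations used limma 3.58.1 (R 4.3.3) and, under Python 3.11.15, pandas 2.3.3, numpy 2.4.6 and matplotlib 3.10.9.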

Additional observations from a re-analysis of the deposited data

How the results depend on the processing

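No paired analysis was possible because the samples form 1 group. Detection of the 8 genes held under all 10 alternatives: the less strict flag, 3 of 4 arrays, all probes required, flagged spots kept, no bright regions, over 50% of a probe's spots above background (added after the data were seen), and each replicate left out. The share of all named genes detected on all arrays ranged from 45.0% to 61.7% over them. The median SD of the detected genes was 0.395 with the array median as the scale, beside 0.390 over all detected genes; the cause was not tested. Under the other scalings, background correction, spot and probe choices it lay between 0.094 and 0.160, and without each replicate between 0.103 and 0.152. The number of repeated probes that differed between arrays was 1 of 8 after quantile normalization and 3 to 7 of 8 when each replicate was left out, 3 without replicate 3; the cause was not tested. With flagged spots kept or with the 75th percentile over detected probes it was 6. The percentile over detected probes and the left-out replicates were added here after the data were seen. Normexp on the mean signals was not run, since the deposited spot tables give a median and no mean spot signal; a version with median signals (offset 50) was added in its place. Mean levels of all 10 genes moved by at least their SD with the array median, the 75th percentile over detected probes or normexp. The array median and that percentile change the point set to 0. The Apoe mean went from -1.94 to 1.64 with the array median. That of Fabp4 went from 3.35 to -0.05 with the percentile over detected probes. After quantile normalization all 10 stayed within their SD. Single-spot genes (Fabp4, Lpl, Chi3l1) carry no check within an array, and Spp1 and Chi3l1 have only a bound at background.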
